A study of Mus musculus with 4 samples.

Results

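The genes described are the ligands of the epidermal growth factor (EGF) family Areg, Ereg, Hbegf, Tgfa, Btc and Epgn, the ErbB receptor genes Egfr, Erbb2 and Erbb3, and Errfi1, which encodes an inhibitor of these receptors. They are 10 of the 21971 mouse genes in the count table, taken by matching these symbols to Ensembl identifiers, and all 10 were found. The libraries come from NMuMG cells. These epithelial cells derive from normal mouse mammary tissue, and TGFβ drives them through epithelial-to-mesenchymal transition (EMT). A first line stably carried Vp16-TRF1ΔN, a mutated human form of the telomere-binding protein TRF1 joined to the Vp16 transcription activation domain, which the series description uses to raise telomeric noncoding RNA of the TERRA type. The second line carried TRF1ΔN, a mutated human TRF1 without Vp16, so both lines carry a mutated TRF1 and no line without it was analysed here. Each line was sequenced after 24 h of TGFβ at 5 ng/ml and at 0 h, both grown in medium with serum and insulin, and gave 1 library per group. The question was how the fusion alters the EMT expression signature. The labels do not say whether a line is a pool or a clone, and name no 24 h library without TGFβ, so time in culture and TGFβ cannot be told apart.

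ErbB receptors are receptor tyrosine kinases that signal as pairs to the ERK and PI3K pathways. Their ligands are made as membrane-bound precursors that proteases of the ADAM family release; amphiregulin, TGFα and epigen bind EGFR, and betacellulin, epiregulin and HB-EGF bind EGFR and ErbB4. ErbB2 has no known ligand of its own, and ErbB3, which binds neuregulins, has little kinase activity and signals through its partners. Amphiregulin acts through EGFR in the growth of mammary ducts.

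The libraries held between 35418985 and 45983910 counts on genes and detected between 19411 and 20047 genes. The row for the VP16 sequence had 27 and 15 counts in the Vp16-TRF1ΔN line at 24 h and 0 h, against 1 and 0 counts in the TRF1ΔN line, as the labels name them. The row for the TRF1ΔN sequence stood at 4.64 and 2.85 CPM (counts adjusted for the size of each library) in the Vp16-TRF1ΔN line (24 h and 0 h) and at 185 and 39.1 CPM in the TRF1ΔN line, so its level differed between lines and times. Mitochondrially encoded genes took 15.7% and 11.4% of the gene counts in the Vp16-TRF1ΔN line at 24 h and 0 h, against 13.3% and 10.2% in the TRF1ΔN line. Cdh1, the E-cadherin gene of epithelial junctions, stood at 166 and 368 CPM in the Vp16-TRF1ΔN line (24 h and 0 h) and at 107 and 366 CPM in the TRF1ΔN line, while Epcam, another epithelial marker, had at most 18 counts in a library. Of 5 immune, 3 endothelial, 3 fibroblast and 3 adipocyte markers, 4, 2, 3 and 2 were listed in the table, with summed levels of 3.48 to 5.35, 0.126 to 1.26, 1.32 to 21.2 and 15.0 to 22.6 CPM over the libraries. Some of these markers rose with TGFβ, as the members changed (edgeR quasi-likelihood test). Of the immune genes Csf1r rose (adjusted p = 0.00462), with 21 and 2 counts in the Vp16-TRF1ΔN line at 24 h and 0 h, against 101 and 1 in the TRF1ΔN line, Cd68 (110 to 150 counts) did not pass, and Ptprc and Lyz2 had at most 7 and 10 counts. Of the endothelial genes Cdh5 rose (adjusted p = 0.00680), with 24 and 5 counts in the Vp16-TRF1ΔN line at 24 h and 0 h, against 50 and 4 in the TRF1ΔN line, and Pecam1 had at most 3 counts. Of the fibroblast genes Pdgfra and Col1a1 rose (log2 changes of 1.91 ± 0.30 and 3.91 ± 0.38, adjusted p = 0.00863 and 0.00294) and Dcn had at most 2 counts. Of the adipocyte genes Pparg (631 to 973 counts) did not pass and Adipoq had at most 1 count. The part of these shifts in the results below was not tested.

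Areg, Ereg, Epgn and Btc lie together on mouse chromosome 5 (GRCm38, the assembly also called mm10; GENCODE M21). Epgn spans chr5:91027464-91035215, Ereg chr5:91074622-91093646 and Areg chr5:91139599-91148432, all on the plus strand, and Btc spans chr5:91357261-91402994 on the minus strand. Tgfa lies at chr6:86195223-86275719, Egfr at chr11:16752203-16918158 and Erbb2 at chr11:98412470-98437716, all on the plus strand. Erbb3 (chr10:128567523-128589652) is on the minus strand and Errfi1 (chr4:150853919-150868892) on the plus strand. All are protein-coding genes. The strand setting of the counting is not given in the sources used here, and Erbb2 overlaps the protein-coding gene Mien1 on the other strand, so reads of the overlap cannot be told apart. Mien1 had 1202 and 2006 counts in the Vp16-TRF1ΔN line at 24 h and 0 h, against 1354 and 1949 counts in the TRF1ΔN line. Ereg and Egfr overlap antisense genes with at most 62 and 103 counts in a library.

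RefSeq's promoter table for GRCm38.p6 held 7 of the 10 genes, namely Areg, Btc, Epgn, Tgfa, Egfr, Erbb2 and Errfi1. The 250 bases before the start are shown 5′ to 3′ for 3 ligand genes that fell together with TGFβ, for Egfr, which rose, and for Erbb2, which fell, so that the promoters of genes with unlike responses can be read side by side. Capitals mark matches, on either strand, to AP-1 (TGANTCA), the cyclic AMP response element (TGACGTCA), the TATA box (TATAAA), the GC box (GGGCGG) and the E2 box (CAGGTG).
Areg (chr5:91139349-91139598, plus strand): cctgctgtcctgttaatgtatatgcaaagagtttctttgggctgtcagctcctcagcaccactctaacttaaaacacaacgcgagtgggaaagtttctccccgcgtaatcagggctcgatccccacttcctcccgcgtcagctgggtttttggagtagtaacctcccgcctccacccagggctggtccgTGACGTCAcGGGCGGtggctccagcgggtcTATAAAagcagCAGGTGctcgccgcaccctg
Btc (chr5:91402995-91403244, minus strand): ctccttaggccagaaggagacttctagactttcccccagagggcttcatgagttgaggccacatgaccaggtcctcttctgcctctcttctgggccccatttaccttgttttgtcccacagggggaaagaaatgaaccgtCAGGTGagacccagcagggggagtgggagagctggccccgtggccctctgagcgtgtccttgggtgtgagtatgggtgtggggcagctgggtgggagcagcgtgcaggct
Tgfa (chr6:86194972-86195221, plus strand): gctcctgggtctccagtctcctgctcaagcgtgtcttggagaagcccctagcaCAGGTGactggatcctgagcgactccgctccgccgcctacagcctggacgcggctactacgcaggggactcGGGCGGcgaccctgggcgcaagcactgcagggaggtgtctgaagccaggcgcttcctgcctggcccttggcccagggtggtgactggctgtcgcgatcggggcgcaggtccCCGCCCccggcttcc
Egfr (chr11:16751953-16752202, plus strand): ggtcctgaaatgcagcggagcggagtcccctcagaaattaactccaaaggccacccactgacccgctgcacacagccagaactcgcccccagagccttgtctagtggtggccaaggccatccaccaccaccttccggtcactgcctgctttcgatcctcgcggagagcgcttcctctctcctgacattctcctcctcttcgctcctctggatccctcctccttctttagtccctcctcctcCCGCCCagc
Erbb2 (chr11:98412234-98412483, plus strand): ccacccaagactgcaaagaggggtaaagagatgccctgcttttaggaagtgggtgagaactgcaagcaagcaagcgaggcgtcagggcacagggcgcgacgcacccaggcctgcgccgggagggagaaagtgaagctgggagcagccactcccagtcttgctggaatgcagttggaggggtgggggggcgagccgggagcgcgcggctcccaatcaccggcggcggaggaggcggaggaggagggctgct

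The Areg promoter held a cyclic AMP response element 61 to 54 bases before the start, a GC box at 52 to 47, a TATA box at 31 to 26 and an E2 box at 20 to 15 bases before it. An E2 box, the letters read by EMT repressors of the Snail and Zeb families, was also in the promoters of Btc (110 to 105 bases before the start), Tgfa (197 to 192) and Epgn (245 to 240), and in 17.2% of all 32851 promoter entries. The Egfr and Erbb2 windows held no match to these letters for the E2 box, and neither did those of Errfi1. The cyclic AMP response element was in 1.55% of all entries, the TATA box in 12.4%, the GC box in 32.7% and AP-1 in 6.75%, with no AP-1 match in any entry of these genes. Errfi1 had 2 entries, and the downstream one held a cyclic AMP response element 51 to 44 bases and a TATA box 28 to 23 bases before the start. The SMAD box (CAGAC, both strands, left in lower case) was in 42.2% of all entries and, of these genes, in that of Tgfa, 90 to 86 bases before the start. A match describes the letters only.

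The first comparison asks how the family responded to 24 h of TGFβ. The ligand genes Areg, Ereg, Tgfa and Btc fell, as did Erbb2, Erbb3 and Errfi1, while Egfr rose. Of the 9 genes tested, 7 fell and 1 rose in the average over both lines, where 25.4% and 23.1% of the 14305 genes tested fell and rose, and 5 fell at least 2-fold, where 10.4% of all genes fell and 8.61% rose that far. The median log2 change was -1.01 over the 9 genes and -0.01 over all genes tested. The test is edgeR's quasi-likelihood test in an additive model of line and TGFβ over the 4 libraries, with Benjamini-Hochberg adjustment over all genes and an adjusted p under 0.05 as the threshold. Its spread rests on 1 residual degree of freedom, so the p-values reflect the spread of these 4 libraries alone, and no group had replicates. That residual is the difference between the lines' TGFβ responses, which the fit draws towards a spread shared across genes. The SE and p-values therefore do not measure a spread between replicate cultures. In bulk RNA, a change in the make-up of the cells and a change in RNA per cell cannot be told apart.

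Areg, the gene of amphiregulin, stood at 34.1 CPM at 24 h and 71.0 CPM at 0 h in the Vp16-TRF1ΔN line, and at 29.3 CPM at 24 h and 82.4 CPM at 0 h in the TRF1ΔN line. Both treated libraries lay below both untreated ones. Its average log2 change was -1.27 ± 0.12 (SE, adjusted p = 0.00301, edgeR quasi-likelihood test). Ereg, the gene of epiregulin, stood at 31.3 CPM at 24 h and 76.4 CPM at 0 h in the Vp16-TRF1ΔN line, and at 24.6 and 83.6 CPM in the TRF1ΔN line. The times did not overlap here either, and the average log2 change was -1.53 ± 0.13 (adjusted p = 0.00249).

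Btc, which encodes betacellulin, had 8.23 CPM at 24 h and 22.5 CPM at 0 h in the Vp16-TRF1ΔN line, and 5.16 and 24.4 CPM in the TRF1ΔN line. Its average log2 change, -1.84 ± 0.21 (adjusted p = 0.00433, edgeR quasi-likelihood test), was the lowest among Areg, Ereg, Hbegf, Tgfa and Btc. Tgfa, the gene of TGFα, an EGFR ligand unrelated to TGFβ in sequence and receptor, had 54.9 CPM at 24 h and 100.9 CPM at 0 h in the Vp16-TRF1ΔN line, and 44.0 and 97.2 CPM in the TRF1ΔN line. Its average log2 change was -1.01 ± 0.09 (adjusted p = 0.00256, same test). Like Areg, Ereg and Btc, it was lower in both treated libraries than in either untreated one. The share of all genes whose times separate in this way was not counted, so the separation is a description of these libraries only.

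Hbegf, which encodes HB-EGF, a ligand that also binds heparan sulfate, did not follow them. The gene lies at chr18:36504927-36515805 (GRCm38) on the minus strand. It stood at 43.1 CPM at 24 h and 49.6 CPM at 0 h in the Vp16-TRF1ΔN line, and at 70.1 and 52.4 CPM in the TRF1ΔN line. The treated libraries were thus the lowest and the highest of the 4. The average log2 change was 0.11 ± 0.16 (adjusted p = 0.606, edgeR quasi-likelihood test) and did not pass. Epgn, the gene of epigen, had 5 and 4 counts in the Vp16-TRF1ΔN line (24 h and 0 h), against 1 and 5 counts in the TRF1ΔN line. That is at most 0.146 CPM in any library, near the 0.0630 to 0.0875 CPM that 3 counts amount to, and it was not tested.

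Among the receptors Egfr and Erbb3 went opposite ways. Egfr stood at 223 CPM at 24 h and 116 CPM at 0 h in the Vp16-TRF1ΔN line, and at 236 and 122 CPM in the TRF1ΔN line, with an average log2 change of 0.95 ± 0.06 (adjusted p = 0.00141, edgeR quasi-likelihood test). Both treated libraries were higher than both untreated ones, and the lines lay close together at each time. Erbb3, the neuregulin receptor gene, stood at 11.6 CPM at 24 h and 32.7 CPM at 0 h in the Vp16-TRF1ΔN line, and at 5.99 and 27.8 CPM in the TRF1ΔN line. Its average log2 change of -1.85 ± 0.19 (adjusted p = 0.00341) was within its SE of that of Btc, and these were the lowest of the 9 genes tested. Erbb2, the co-receptor without a ligand, stood at 68.5 CPM at 24 h and 101 CPM at 0 h in the Vp16-TRF1ΔN line, and at 68.0 and 97.6 CPM in the TRF1ΔN line. It fell by 0.54 ± 0.06 (log2 scale, adjusted p = 0.00438), with its lines nearly equal at each time.

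Errfi1, also called Mig6, encodes a protein that binds the EGFR kinase domain and blocks it, and its gene is itself induced by EGFR signalling. It stood at 27.3 CPM at 24 h and 43.6 CPM at 0 h in the Vp16-TRF1ΔN line, and at 31.4 and 44.6 CPM in the TRF1ΔN line. It fell by 0.59 ± 0.08 (log2 scale, adjusted p = 0.00640, edgeR quasi-likelihood test), and both treated libraries lay below both untreated ones.

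**Figure D1:**
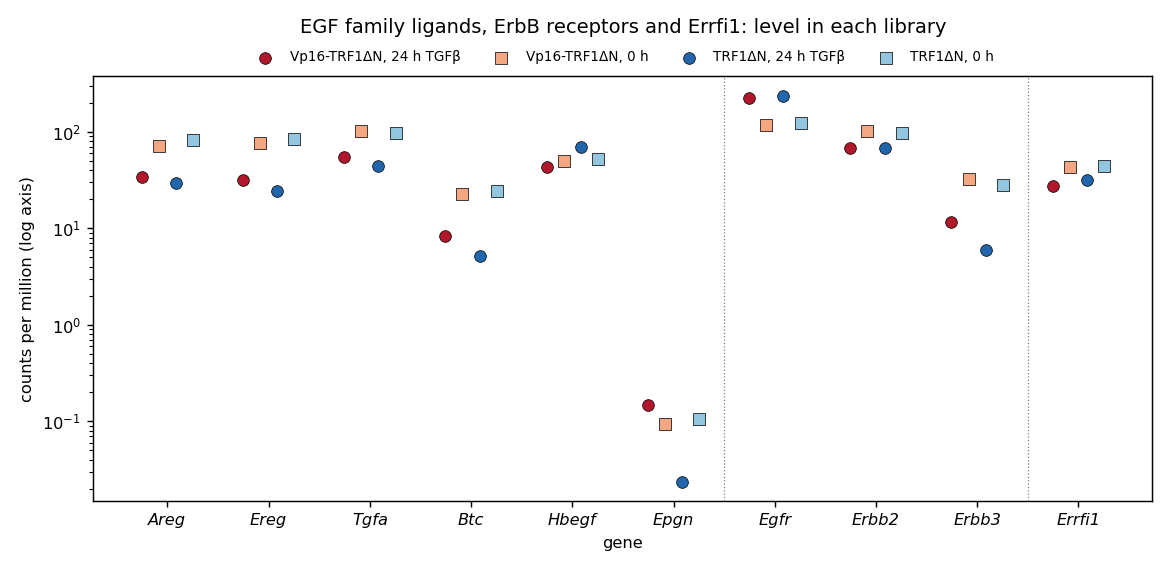
Level of each gene in CPM (log axis) in the 4 libraries, 1 point per library, with circles for 24 h of TGFβ and squares for 0 h; dotted lines part ligands, receptors and Errfi1. Areg, Ereg, Tgfa, Btc, Erbb2, Erbb3 and Errfi1 are lower in both treated libraries and Egfr is higher, while Epgn lies at or below 0.146 CPM.

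Levels of different genes were compared per length, as counts divided by the merged exon length and scaled to the same total in each library (TPM); without replicates no spread can be set beside the order. With this length Areg had the highest level of the ligand genes in each library, with 83.3 and 185 TPM in the Vp16-TRF1ΔN line (24 h and 0 h) and 75.0 and 219.7 TPM in the TRF1ΔN line. At 0 h Ereg (58.5 TPM in the Vp16-TRF1ΔN line and 65.6 TPM in the TRF1ΔN line), Tgfa (49.2 and 48.5), Hbegf (32.5 and 35.1) and Btc (15.7 and 17.5) followed in that order in both lines. At 24 h Hbegf came second in both lines, at 26.5 TPM in the Vp16-TRF1ΔN line and 45 TPM in the TRF1ΔN line. Its share of the summed ligand TPM was 16.2% at 24 h and 9.53% at 0 h in the Vp16-TRF1ΔN line, and 27.6% at 24 h and 9.08% at 0 h in the TRF1ΔN line.

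The summed level of the 6 ligand genes was 163 TPM at 24 h and 341 TPM at 0 h in the Vp16-TRF1ΔN line, and 163 and 387 TPM in the TRF1ΔN line. The summed level of the 3 receptor genes moved far less, at 103 TPM at 24 h and 111 TPM at 0 h in the Vp16-TRF1ΔN line and 108 and 111 TPM in the TRF1ΔN line. Within it the order of the first 2 turned: Egfr made 56.7% at 24 h and 29.2% at 0 h in the Vp16-TRF1ΔN line, and 59.7% and 31.5% in the TRF1ΔN line. Erbb2 made 37.8% at 24 h and 55.3% at 0 h in the Vp16-TRF1ΔN line, and 37.4% and 54.9% in the TRF1ΔN line. Erbb3 made 5.52% at 24 h and 15.5% at 0 h in the Vp16-TRF1ΔN line, and 2.85% and 13.6% in the TRF1ΔN line. With the longest transcript as the length, the order of the receptors was the same in each library, but the order of the ligands was the same in only 1 of the 4, and in the TRF1ΔN library at 24 h Areg, at 36.9% of the ligand TPM, no longer stood above Hbegf, at 37.1%.

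**Figure D2:**
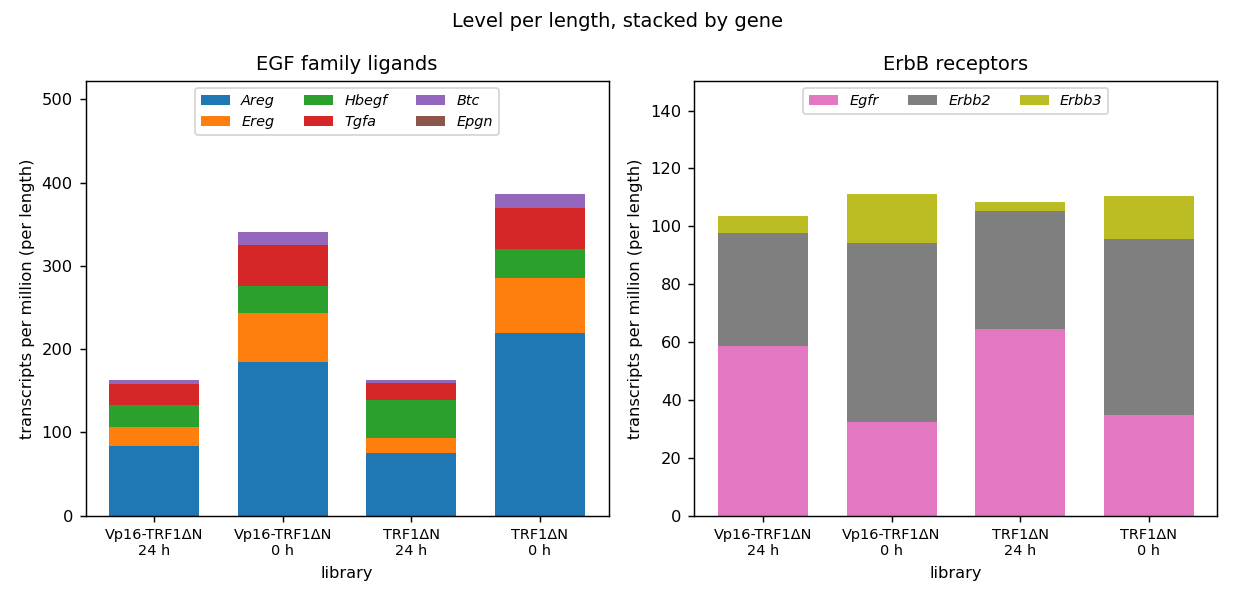
Stacked bars of the level per length (TPM, linear axis from 0) of the ligand genes (left) and the receptor genes (right) in each library, 1 bar per library. The ligand bars reach 163 TPM at 24 h in both lines and 341 and 387 TPM at 0 h, while the receptor bars stay between 103 and 111 TPM with a larger Egfr part at 24 h.

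The second comparison sets the lines' own TGFβ responses side by side. These have no test, since each rests on 1 library at each time; ratios are given with exact 95% counting intervals, which cover counting error only. In the Vp16-TRF1ΔN line 4 of the 9 genes that averaged 1 CPM or more were at least 2-fold lower with an interval that excluded 1 (9.09% of 11777 such genes were, and 16.0% in either direction), namely Areg, Ereg, Btc and Erbb3. In the TRF1ΔN line these and Tgfa were, 5 of the 9 (10.9% of all, and 19.3% in either direction). None was at least 2-fold higher in either line (6.92% and 8.40% of all in the Vp16-TRF1ΔN and TRF1ΔN lines).

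The ratio of 24 h to 0 h for Areg was 0.480 (0.448 to 0.514) in the Vp16-TRF1ΔN line and 0.356 (0.334 to 0.380) in the TRF1ΔN line. For Ereg it was 0.409 (0.382 to 0.439) in the Vp16-TRF1ΔN line and 0.294 (0.274 to 0.315) in the TRF1ΔN line. For Btc it was 0.366 (0.319 to 0.418) in the Vp16-TRF1ΔN line and 0.212 (0.182 to 0.245) in the TRF1ΔN line. In each of these ligand genes the fall was smaller in the Vp16-TRF1ΔN line, and the intervals did not overlap. For Tgfa the ratio was 0.544 (0.515 to 0.575) in the Vp16-TRF1ΔN line and 0.453 (0.429 to 0.478) in the TRF1ΔN line. For Erbb3 it was 0.353 (0.315 to 0.395) in the Vp16-TRF1ΔN line and 0.215 (0.187 to 0.247) in the TRF1ΔN line. These genes, too, fell less in the Vp16-TRF1ΔN line.

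Hbegf had a ratio of 0.868 (0.811 to 0.927) in the Vp16-TRF1ΔN line and 1.34 (1.27 to 1.41) in the TRF1ΔN line, so the lines lay on either side of 1. Opposite directions with both intervals excluding 1 were seen in 1.59% of the 11777 genes. Egfr had a ratio of 1.92 (1.85 to 1.99) in the Vp16-TRF1ΔN line and 1.94 (1.88 to 2.002) in the TRF1ΔN line. Erbb2 had a ratio of 0.675 (0.642 to 0.710) in the Vp16-TRF1ΔN line and 0.696 (0.664 to 0.730) in the TRF1ΔN line. For both receptor genes the intervals of the lines overlapped. Errfi1 had a ratio of 0.626 (0.578 to 0.677) in the Vp16-TRF1ΔN line and 0.703 (0.656 to 0.754) in the TRF1ΔN line, and its intervals overlapped as well.

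**Figure D3:**
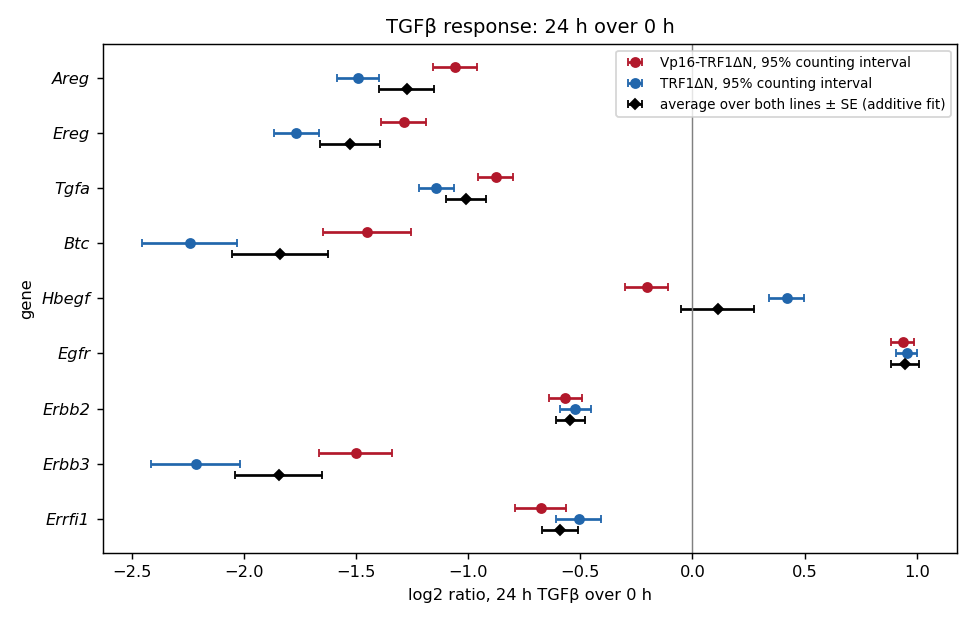
Log2 ratio of 24 h of TGFβ over 0 h for 9 genes, with the Vp16-TRF1ΔN line and the TRF1ΔN line as circles with 95% counting intervals and the average over both lines as diamonds with ± SE. Hbegf lies below 0 in the Vp16-TRF1ΔN line and above 0 in the TRF1ΔN line, and the intervals of the lines overlap for Egfr, Erbb2 and Errfi1.

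The difference between the responses is given as the ratio of the 2 ratios, Vp16-TRF1ΔN over TRF1ΔN, with an interval from Poisson variances. It was 1.347 (1.23 to 1.48) for Areg, 1.39 (1.26 to 1.53) for Ereg and 1.20 (1.11 to 1.30) for Tgfa. It was larger for Btc, at 1.72 (1.42 to 2.10), and for Erbb3, at 1.63 (1.37 to 1.95). Of the 7 genes that fell, these 5 fell less in the Vp16-TRF1ΔN line with an interval that excluded 1, against 33.7% of the 3292 genes that fell and averaged 1 CPM or more. Errfi1 fell more in that line, at 0.890 (0.802 to 0.987), as did 13.4% of those genes. The median log2 difference was 0.43 over the 7 genes and 0.07 over all that fell. The 5 genes that fell less are also those that fell at least 2-fold on average. The 3292 genes include shallower falls and were not matched to them in depth of fall or in counts. Hbegf stood at 0.649 (0.596 to 0.706), and Egfr at 0.989 (0.943 to 1.04) and Erbb2 at 0.970 (0.906 to 1.04), the last 2 with intervals that included 1. None of the 9 genes reached a 2-fold difference of responses, where 2.73% of 11777 genes did, 1.81% higher and 0.926% lower. The 5 epithelial marker genes did not share one direction in the same comparison. Cdh1 and Krt19, which fell with TGFβ, had ratios of 1.53 (1.47 to 1.60) and 3.10 (2.98 to 3.23), while Krt8 and Krt18, which rose, had 0.972 (0.958 to 0.986) and 1.09 (1.08 to 1.10). Epcam, which did not pass, had 1.61 (0.421 to 6.16). Of the mesenchymal markers Fn1 and Cdh2, which rose, had 0.81 (0.774 to 0.848) and 1.06 (1.002 to 1.12). Vim, which did not pass, had 1.10 (1.09 to 1.11). The part of these marker genes in the members' values was not tested.

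The third comparison sets the lines against each other at each time. At 24 h none of the 9 genes differed at least 2-fold (3.29% of 11777 genes did, 2.11% higher and 1.18% lower in the Vp16-TRF1ΔN line), but the lines were further apart than at 0 h for most of them. Erbb3 was 1.93 times as high in the Vp16-TRF1ΔN line at 24 h (1.64 to 2.27) and Btc 1.60 times (1.33 to 1.91). Ereg stood at 1.27 times (1.17 to 1.39), Tgfa at 1.25 times (1.17 to 1.33) and Areg at 1.16 times (1.07 to 1.26) the level of the TRF1ΔN line. Hbegf was lower in the Vp16-TRF1ΔN line, at 0.615 of the other line's level (0.577 to 0.654), and so was Errfi1, at 0.869 (0.798 to 0.945). Egfr (0.946, 0.919 to 0.975) and Erbb2 (1.01, 0.953 to 1.06) differed little.

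At 0 h none differed at least 2-fold either, where 0.594% of all genes did, 0.178% higher and 0.416% lower. The ratio of the Vp16-TRF1ΔN line to the TRF1ΔN line was 1.18 (1.09 to 1.27) for Erbb3 and 0.861 (0.821 to 0.903) for Areg, with the other 7 genes between 0.914 for Ereg and 1.04 for Erbb2. Areg and Ereg were thus lower in the Vp16-TRF1ΔN line at 0 h and higher at 24 h. The 0 h and 24 h ratios share no library with each other. Together they use the same libraries as the second comparison. A change of these ratios from 0 h to 24 h therefore restates the difference of responses given there.

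Averaged over both times in the additive fit, none of the 9 genes differed between the lines at an adjusted p under 0.05 in edgeR's quasi-likelihood test, and neither did any of the 14305 genes (0% called). At an unadjusted p under 0.05 in that test there were 1779 of the 14305 genes and 1 of the 9 of this family, which are similar shares. The 1 was Erbb3 (log2 difference of 0.55 ± 0.19 SE, adjusted p = 0.399). DESeq2's Wald test called 47 genes and none of this family. Hbegf had a log2 difference of -0.39 ± 0.16 (adjusted p = 0.408, edgeR quasi-likelihood test).

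**Figure D4:**
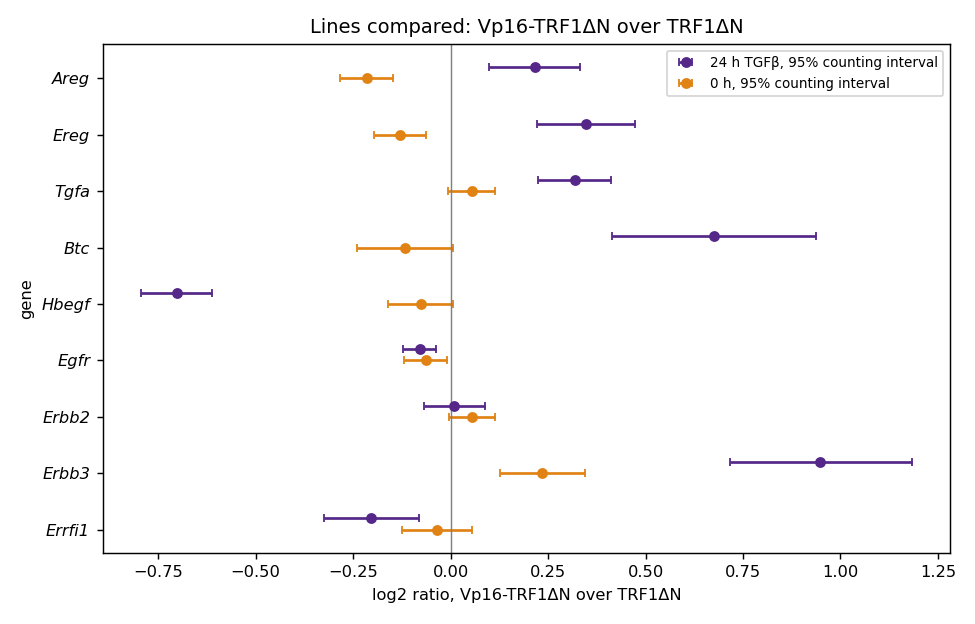
Log2 ratio of the Vp16-TRF1ΔN line over the TRF1ΔN line for 9 genes at 24 h of TGFβ and at 0 h, with 95% counting intervals. At 24 h Erbb3, Btc, Ereg, Tgfa and Areg lie above 0 and Hbegf lies below it, while at 0 h all points lie between -0.22 (Areg) and 0.23 (Erbb3).

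The neighbours of the ligand genes on chromosome 5 were examined next. Within 1 Mb of the start of Areg GENCODE lists 26 protein-coding genes, 4 of them EGF family ligands. Of the other 22 genes 20 were tested; 7 fell with TGFβ, 1 rose and 12 did not pass, where 25.4% of all genes tested fell and 23.1% rose. Those that fell lay on the Epgn side of the cluster, between the albumin gene Alb, at -0.679 Mb from the Areg start, and the chemokine genes Cxcl5 and Pf4, at -0.380 and -0.367 Mb. Rassf6, at -0.499 Mb, had 513 and 2177 counts in the Vp16-TRF1ΔN line (24 h and 0 h), against 352 and 2407 counts in the TRF1ΔN line (-2.17 ± 0.22 on the log2 scale with an adjusted p of 0.00326, edgeR quasi-likelihood test). Mthfd2l, between the chemokine genes and Epgn, stood at -0.12 ± 0.09 (adjusted p = 0.345), and Parm1, the nearest gene beyond Btc, at 0.14 ± 0.11 (adjusted p = 0.335). Further out on the Epgn side Cxcl1 (-0.84 ± 0.26 at -0.248 Mb, adjusted p = 0.0535) and Cxcl2 (-1.08 ± 0.32 at -0.236 Mb, adjusted p = 0.0517) were lower at 24 h in both lines and narrowly missed the threshold. Odaph, at 0.848 Mb on the Btc side of Areg, rose by 5.17 ± 0.21 on the log2 scale (adjusted p = 0.000858).

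**Figure D5:**
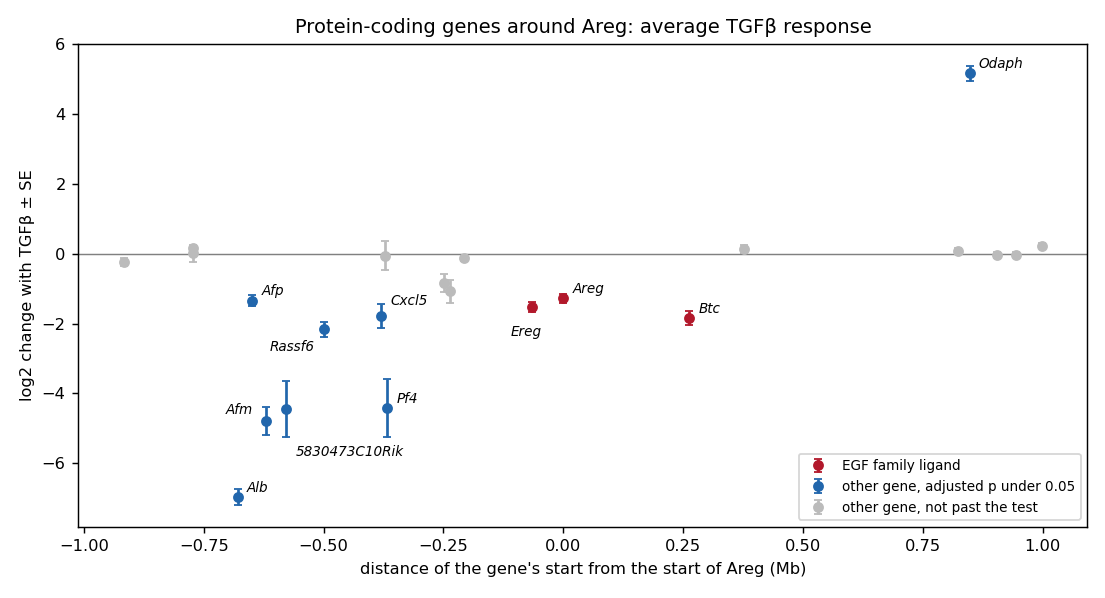
Average log2 change with TGFβ (± SE, additive fit) of the tested protein-coding genes within 1 Mb of the start of Areg, by distance in Mb along chromosome 5. Ereg, Areg and Btc lie below 0, and the other genes that passed as lower lie at -0.367 Mb or further left, with Cxcl1 and Cxcl2, below 0 but not past the test, between them and Ereg.

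The rest of the pathway was described from lists written from general knowledge, with earlier results of these data known. Of the other ligand genes and ErbB4, Nrg1, which encodes neuregulin 1, a ligand of ErbB3 and ErbB4, was well expressed. It stood at 67.6 CPM at 24 h and 126 CPM at 0 h in the Vp16-TRF1ΔN line, and at 52.4 and 128 CPM in the TRF1ΔN line, and fell by 1.09 ± 0.11 (log2 scale, adjusted p = 0.00340, edgeR quasi-likelihood test). Nrg2 fell too, with 5 and 35 counts in the Vp16-TRF1ΔN line (24 h and 0 h), against 5 and 48 counts in the TRF1ΔN line (adjusted p = 0.00671). Nrg4 had 2 and 22 counts in the Vp16-TRF1ΔN line, a ratio of 0.114 (0.0130 to 0.465), and 4 and 13 counts in the TRF1ΔN line, a ratio of 0.348 (0.0827 to 1.13). It passed edgeR's quasi-likelihood test (adjusted p = 0.0361) but not DESeq2's Wald test (adjusted p = 0.272). Egf had 40 and 58 counts in the Vp16-TRF1ΔN line (24 h and 0 h), against 41 and 64 counts in the TRF1ΔN line, and did not pass (adjusted p = 0.307). Erbb4 had at most 2 counts in a library and Nrg3 was not found in the count table. Of the 4 genes tested in this list 3 fell and none rose (25.4% and 23.1% of all genes tested).

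Of the 11 sheddases and their regulators 10 were tested, of which 7 rose and 2 fell (23.1% and 25.4% of all genes tested), with a median log2 change of 0.40. Timp3, an inhibitor of the sheddase ADAM17, rose by 4.85 ± 0.09 on the log2 scale (adjusted p = 0.000858, edgeR quasi-likelihood test). It had 2882 and 117 counts in the Vp16-TRF1ΔN line (24 h and 0 h), against 10457 and 432 counts in the TRF1ΔN line, and was lower in the Vp16-TRF1ΔN line at both times (ratios 0.339 and 0.299 at 24 h and 0 h); averaged over both times this was -1.63 ± 0.08 on the log2 scale with an adjusted p of 0.0837. Adam12, a protease that can release HB-EGF, rose by 4.65 ± 0.21 and Adam8 by 1.75 ± 0.13. Adam17 itself, the main sheddase of amphiregulin and TGFα, fell by 0.37 ± 0.08 (adjusted p = 0.0204) and Adam9 by 0.27 ± 0.07 (adjusted p = 0.0399), the last not called by DESeq2's Wald test (adjusted p = 0.0867). Rhbdf1, which encodes the ADAM17 partner iRhom1, stood at 0.12 ± 0.09 and did not pass (adjusted p = 0.333).

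Of the 12 receptor inhibitors and turnover genes 6 rose and 2 fell (23.1% and 25.4% of all), with a median of 0.26. Sh3kbp1, an adaptor in receptor endocytosis, rose by 1.24 ± 0.07, and the ubiquitin ligase genes Cblb and Cbl, whose proteins mark EGFR for degradation, rose by 0.84 ± 0.11 and 0.59 ± 0.09. Cblc, of the same gene family, fell at low counts (adjusted p = 0.00615, edgeR quasi-likelihood test). It had 2 and 37 counts in the Vp16-TRF1ΔN line (24 h and 0 h), against 2 and 23 counts in the TRF1ΔN line. Socs5 fell by 0.45 ± 0.10 (adjusted p = 0.0224, edgeR quasi-likelihood test), and Ptprj (-0.18) and Socs4 (-0.16) did not pass. Of the 19 adaptors and transducers 8 rose, 4 fell (23.1% and 25.4% of all) and 7 did not pass, with a median of 0.18. Gab2, a docking adaptor, rose by 2.01 ± 0.08, Stat3 by 0.86 ± 0.08 and Map2k1, which encodes the kinase MEK1, by 0.58 ± 0.13. Hras fell by 0.58 ± 0.08 on the log2 scale, Pik3r1, a regulatory subunit of PI3K, by 0.45 ± 0.06, and Shc1 by 0.29 ± 0.06, the last not called by DESeq2's Wald test (adjusted p = 0.0576).

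Of the 21 genes known to be induced by ERK signalling 20 were tested; 7 rose, 5 fell (23.1% and 25.4% of all) and 8 did not pass, with a median of -0.05. Dusp6, an ERK phosphatase gene, fell by 1.51 ± 0.09 (log2 scale, adjusted p = 0.00118, edgeR quasi-likelihood test), with 27.7 CPM at 24 h and 73.5 CPM at 0 h in the Vp16-TRF1ΔN line and 22.2 and 68.2 CPM in the TRF1ΔN line. Ccnd1, the cyclin D1 gene, fell by 0.99 ± 0.07 and Egr1 by 0.61 ± 0.12. In the other direction Dusp5, another ERK phosphatase gene, rose by 1.60 ± 0.09, Junb by 1.43 ± 0.12 and Dusp1 by 1.34 ± 0.10. These genes also respond to other pathways.

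Genes whose pattern over the 4 libraries was most like that of Erbb3 and Btc, the members with the largest range of log2 CPM (2.44 and 2.23), were picked by the distance of their log2 CPM after centring on each gene's mean. The pool held 9721 genes that averaged 5 CPM or more. It left out the members, genes without a symbol, and predicted or clone-named genes. Nearest to Erbb3 in this pool were Mylk (distance 0.0752), Gnai1 (0.0770) and Sema4a (0.0894). Mylk, the myosin light chain kinase gene, stood at 23.3 CPM at 24 h and 69.1 CPM at 0 h in the Vp16-TRF1ΔN line, and at 12.2 and 59.7 CPM in the TRF1ΔN line. Nearest to Btc were Syne3 (0.0987), Mboat1 (0.110) and Sim2 (0.130). Syne3 stood at 6.48 CPM at 24 h and 17.8 CPM at 0 h in the Vp16-TRF1ΔN line, and at 3.75 and 18.2 CPM in the TRF1ΔN line. With 4 libraries many genes share such a pattern, and the distances are a description.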

How the data were processed

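RNA was extracted from NMuMG cells and libraries were made after removal of ribosomal RNA, per the labels' protocols. Per the submitters' processing notes, which give no versions, the tools were FastQC, STAR, HTSeq and DESeq2 with the mouse build mm10; the annotation release and the strand setting were not stated there. The authors deposited counts per gene and log2 normalized values. The deposited log2 values match counts over 1 size factor per library with 1 added before taking logs, and served only for this check.

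The 4 construct rows (0.0129% to 0.0582% of counts) entered neither library sizes nor tests. Symbols were found for 21889 of 21971 genes. Counts were scaled with TMM factors over all genes (edgeR 4.0.16, R 4.3.3), and CPM refer to the scaled library. Genes passing filterByExpr (14305) were fitted with line and TGFβ as additive terms (prior degrees of freedom 3.39, biological coefficient of variation 0.0931). Each SE was taken as the absolute log2 change over the root of its F statistic. Ratios of single libraries used CPM, and log2 ratios a prior count of 2. TPM used GENCODE M21 merged exon lengths. Depth of 35418985 to 45983910 counts sets the counting intervals, which leave out any spread between cultures. DESeq2 1.42.0 was an alternative. From each longer list the 3 genes with the highest and the 3 with the lowest log2 change at a mean of at least 5 CPM were named. Mien1, the genes near Areg, and Cblc, whose mean was under 5 CPM, were added after their values were seen. Members and lists were chosen with earlier results of these data known.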

Additional observations from a re-analysis of the deposited data

Results flagged for a closer look

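Hbegf drew attention because its TGFβ response ran in opposite directions in the lines: the log2 ratio of 24 h to 0 h was -0.20 in the Vp16-TRF1ΔN line and 0.42 in the TRF1ΔN line, each from 1 pair of libraries, and the difference was not tested.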

How the results depend on the processing

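The calls of the 9 tested genes of the family were the same with DESeq2's size factors, with DESeq2's Wald test, without a filter on low counts and with mitochondrial genes left out: 7 fell and 1 rose with TGFβ, and none was called between the lines. Their log2 changes moved by little over these settings, for example between -1.30 and -1.275 for Areg and between 0.92 and 0.95 for Egfr. Counts over all genes moved more. For the average difference between the lines, where 0 genes were called, DESeq2's Wald test called 13 higher and 34 lower, the fit without a filter on low counts 28 and 81, and the fit without mitochondrial genes 4 lower. Without the filter on the mean, 1368 genes were counted as higher with TGFβ in the Vp16-TRF1ΔN line, and 1879 as higher and 1944 as lower in the TRF1ΔN line. Between the lines 417 were then higher and 483 lower at 24 h, a balance that turns from 249 and 139, and 179 and 206 at 0 h. For the difference of responses 320 and 274 were counted. More genes enter in these settings. With the longest transcript as the length, the order of the ligand genes by level was the same in 1 library of 4. In the line term Timp3 was called by DESeq2's Wald test, without the filter and without mitochondrial genes, and Shc1 turned to -0.0040 (adjusted p = 0.983) in the last, with no call. The additive fit already pairs 24 h with 0 h within each line; the labels give no replicate numbers for any further pairing, and leaving out a library leaves the additive fit without a residual degree of freedom. Depth limits Epgn, Erbb4 and Nrg4.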
